A study of Mus musculus with 45 samples.

Results

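Liver mRNA of mice fed a high-fat diet (HFD) for 16 weeks was compared with that of chow-fed mice 120 min after an injection of insulin. The comparison uses 6 of the 45 libraries of the series, 3 on each diet, chosen by the diet and the insulin time in their labels and not by any measured value. All mice were wild-type C57BL/6J, were 24 weeks old and had been starved overnight, and each of these 6 had received 1 U/kg of insulin into the peritoneum. The HFD mice had eaten the diet from 8 weeks of age. The chow mice are therefore of the same age at death but never ate HFD. The labels used here give no sex, and they do not say what a replicate number marks. The series states at least 3 mice per group, but the labels do not say whether each library is a separate mouse. The p-values rest on a spread between libraries that was estimated jointly over all 14 groups of the series. Livers of both diets without insulin (basal, 6 libraries) and livers 60 min after insulin (6 libraries) served to ask whether the diet difference at 120 min was the same as at those times. Livers 15 and 30 min after insulin are quoted for single genes. Groups given metformin or fed HFD for 6 weeks entered the joint fit but are not compared here. Insulin resistance of the liver on HFD is the subject of the series.

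In the fasted liver, FoxO1 drives genes of glucose output and amino acid use such as G6pc, Pck1 and Igfbp1. Insulin acts through its receptor, the IRS proteins and Akt, which moves FoxO1 out of the nucleus, and it raises lipogenic genes through SREBP-1c, the product of Srebf1. In mice made obese by diet, part of this control is blunted while lipid synthesis stays high, and the liver stores triglyceride in droplets and holds more inflammatory cells. The samples are whole tissue, and fewer cells of a type and less RNA per cell cannot be told apart in them.

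The 3 chow libraries held 29466850, 21859228 and 20927674 counted reads and the 3 HFD libraries 22719078, 18259993 and 19881171. Of 23227 genes, 14067 passed the filter on low counts and were tested. Levels are given as CPM, the read count relative to a library total scaled by TMM, and differences as log2 of HFD over chow ± standard error (SE) from edgeR. A gene was called at a Benjamini-Hochberg adjusted p under 0.05 over all genes tested. Of the 14067 genes, 3962 (28.2%) were called, 2042 higher on HFD (14.5%) and 1920 lower (13.6%). The counts called in each list below are to be read against these shares. The median difference over all genes was 0.02. Differences past 2-fold were fewer among the genes that fell (241) than among those that rose (826). Calls were fewer when a library was left out. List counts from such fits are to be read against the counts of all genes there. Genes called higher numbered 1763, 1388 and 1426 without chow replicates 1, 2 and 3. They numbered 1619, 1249 and 1864 without HFD replicates 1, 2 and 3. Genes called lower numbered 1757, 1374 and 1427, and 1414, 1274 and 1659, in the same order. Without HFD replicate 2 the number of calls was 2523. That library stood apart in markers of immune cells, and chow replicate 2 stood apart in stress genes, as given beside the results they touch. Gene length also differed by diet: how far a gene lay from its mean over all libraries was correlated with exon length at 0.03, 0.06 and 0.01 in the chow libraries and at 0.24, 0.19 and 0.26 in the HFD libraries (Spearman, across genes). Liver identity was plain in every library, with the summed level of 17 hepatocyte markers at 96884 to 182554 CPM. Pancreatic acinar markers varied from 26.0 CPM (chow replicate 2) to 3828 CPM (HFD replicate 3) without regard to diet, and none of the 21 was called. Skeletal muscle markers summed to 12.4, 4.65 and 4.02 CPM on chow and to 35.7, 17.2 and 18.9 CPM on HFD. Of these 16, 1 was called higher, and their median of 2.29 was -0.17 without HFD replicate 1. Erythroid markers summed to 71.9, 73.8 and 65.0 CPM on chow and to 124, 131 and 124 CPM on HFD, with 1 of 4 tested called higher.

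**Figure D1:**
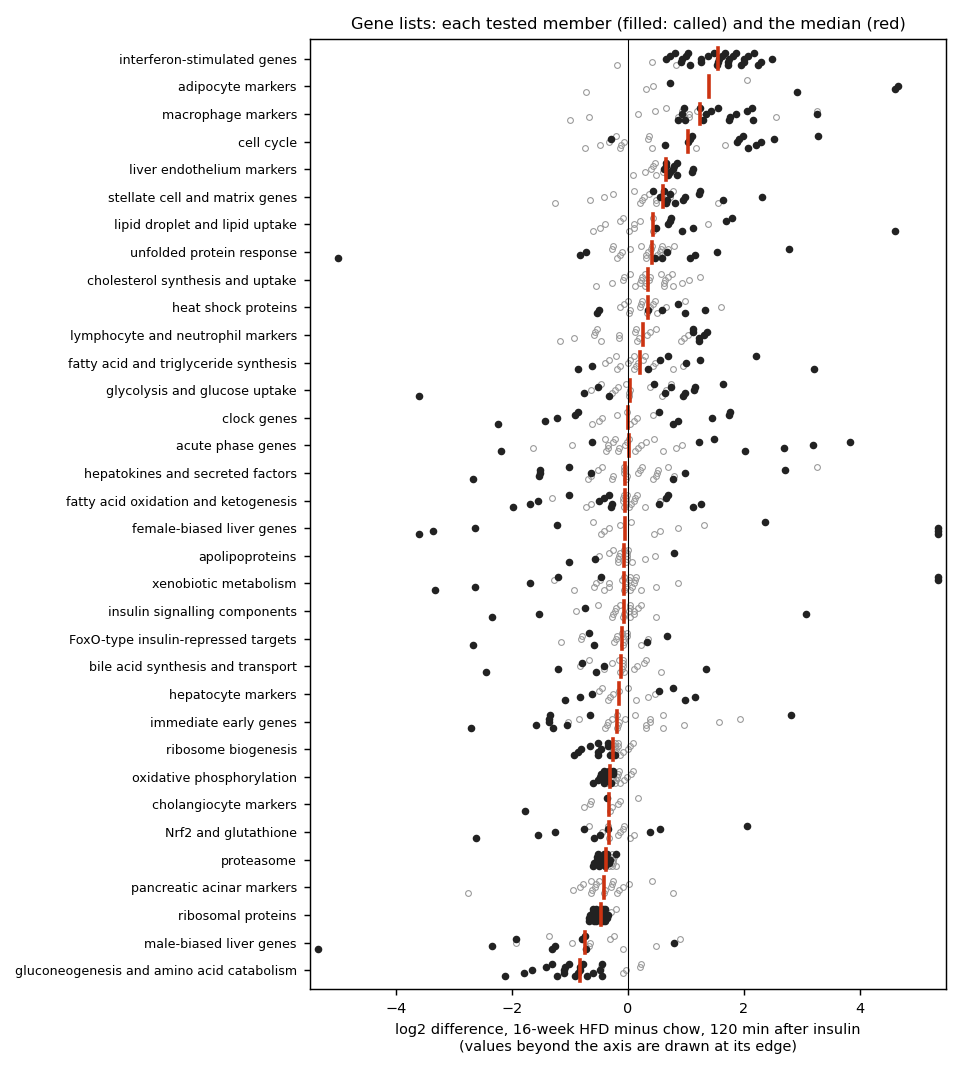
Log2 difference between 16-week HFD and chow livers 120 min after insulin (x axis) for each tested member of 34 gene lists (y axis, in order of their medians); filled points are called genes, open points are not, and red bars are medians. The interferon list lies to the right of 0 with a median of 1.56 and the list of gluconeogenesis and amino acid catabolism to the left with a median of -0.83. The lists of skeletal muscle markers (median 2.29) and erythroid markers (median 1.32) are not drawn.

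The hepatic programme of glucose output and amino acid catabolism was lower on HFD than on chow 120 min after insulin. Of 25 listed genes, 20 fell and none rose, against 13.6% lower among all genes, and the median difference was -0.83 against 0.02 over all genes. G6pc, the glucose-6-phosphatase that releases glucose, was at 891, 712 and 579 CPM in chow replicates 1 to 3 and at 236, 280 and 366 CPM on HFD (-1.31 ± 0.37, adjusted p = 0.00758). The 3 HFD livers lay below all 3 chow livers. Ppargc1a, the coactivator PGC-1α that supports gluconeogenesis in fasting, was at 22.6, 38.1 and 40.7 CPM on chow and at 12.7, 11.6 and 13.6 CPM on HFD (-1.42 ± 0.23, adjusted p = 4.30e-05). Pck1, which makes phosphoenolpyruvate, was at 4564, 5582 and 5465 CPM on chow and at 2384, 3332 and 3894 CPM on HFD (-0.70 ± 0.22, adjusted p = 0.0178). Its call was lost without chow replicate 2, without chow replicate 3 or without HFD replicate 1 (adjusted p = 0.0619, 0.0543 and 0.119, the last being the highest over 13 alternatives and 0.00715 the lowest).

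Enzymes that handle amino nitrogen were among those that fell. Got1, the cytosolic aspartate aminotransferase, was at 563, 757 and 897 CPM on chow and at 134, 210 and 162 CPM on HFD (-2.13 ± 0.40, adjusted p = 1.71e-04). The urea cycle genes Asl (argininosuccinate lyase, -1.66 ± 0.22), Arg1 (arginase, -1.10 ± 0.12), Cps1 (carbamoyl phosphate synthetase, -1.09 ± 0.21) and Ass1 (argininosuccinate synthase, -0.83 ± 0.22) fell too. Ass1 is uncertain, since 41.0% of its 40-base exon words occur in other genes; genes with 20% or more are called uncertain here. For Arg1 the chow values were 2046, 1901 and 2003 CPM and the HFD values 952, 970 and 864 CPM, so that the spread within a diet was small beside the difference. Sdsl, related to serine dehydratase, fell by 1.80 ± 0.33. Agxt2l1, which degrades phosphoethanolamine, was at 428, 457 and 479 CPM on chow and 78.3, 73.2 and 75.2 CPM on HFD (-2.59 ± 0.35, adjusted p = 3.86e-06).

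Asns showed the largest fall of any called gene that averaged at least 5 CPM and had no overlap between diets. It encodes asparagine synthetase, a target of the amino acid response through ATF4, and lies in mm9 at chr6:7625171-7643182 on the minus strand. It was at 14.4, 22.3 and 41.7 CPM on chow and at 0.692, 0.563 and 1.18 CPM on HFD (-5.00 ± 1.04, adjusted p = 6.20e-04). Atf4 itself was at 75.8, 103 and 91.1 CPM on chow and at 49.8, 51.7 and 50.7 CPM on HFD (-0.83 ± 0.14). Across the times, the diet difference of Asns was -4.27 ± 1.04 in basal livers, -0.53 ± 0.82 at 15 min, -2.02 ± 0.68 at 30 min and -4.66 ± 1.04 at 60 min. The mean HFD level was 7.45 ± 7.57 CPM at 15 min (SD, n = 3) and 0.810 ± 0.323 CPM at 120 min (SD, n = 3), so that the libraries at 15 min were scattered.

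The list of genes that insulin represses through FoxO does not hold G6pc and Pck1, which are described above and fell. Of its 19 tested members 3 fell and 2 rose, a share of calls near that of all genes, and the median was -0.11. These members thus did not move as one. Leaving out a library left 3 that fell and 0 to 2 that rose. Igfbp1, a secreted binding protein of insulin-like growth factors, had the largest fall among them. It was at 547, 1102 and 616 CPM on chow and at 57.9, 147 and 151 CPM on HFD (-2.67 ± 0.54, adjusted p = 4.16e-04), with no overlap. The chow level was highest at the last time: it averaged 211 ± 60.8 CPM in basal livers, 112 ± 9.48 CPM at 30 min and 755 ± 303 CPM at 120 min (SD, n = 3 each). On HFD it averaged 36.1 ± 7.03 CPM in basal livers and 119 ± 52.6 CPM at 120 min (SD, n = 3 each). The diet difference was nearly as large in basal livers (-2.54 ± 0.54), and the difference between both diet effects was -0.13 ± 0.72. Irs2, the insulin receptor substrate that FoxO raises in fasting, was at 17.6, 45.8 and 13.6 CPM on chow and at 13.5, 13.7 and 16.6 CPM on HFD, which overlap (-0.81 ± 0.45, adjusted p = 0.174). Klf15, a factor of amino acid catabolism, fell by 0.67 ± 0.16, and the amino acid carrier Slc38a4 fell by 0.58 ± 0.11. Trib1 (0.68 ± 0.21) and Mxd4 (0.33 ± 0.11) rose. The call of Trib1 was lost without chow replicate 1 or HFD replicate 3 (adjusted p = 0.0727 and 0.0566). The call of Mxd4 was lost without chow replicate 2, chow replicate 3, HFD replicate 2 or HFD replicate 3 (adjusted p = 0.117, 0.0561, 0.0506 and 0.0664).

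The bases before the start of Igfbp1 hold the word CAAAACA, part of the insulin response element described for this promoter. They are shown because Igfbp1 had the largest fall of the list. The window is chr11:7197649-7197715 of GRCm38.p6, plus strand, from RefSeq, and capitals mark the word.
Igfbp1: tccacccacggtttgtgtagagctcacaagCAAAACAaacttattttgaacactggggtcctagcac
The word begins 108 bases before the start. Searched on both strands in the 250 bases before each start, it was found in 5.6% of 32851 RefSeq promoters. Counted by gene, it was in 6.4% of 27025 genes with a promoter and in 2 of the 17 genes of the FoxO list that had a promoter there. Of tested genes with the word, 10.9% were called lower on HFD, against 14.2% of those without it. The word TGATGNAAT, of the type known from genes of the amino acid response, was searched in the same way and was in 0.8% of promoters. No match was found for Asns, but only this exact word was searched, and not every gene had a promoter there. Whether Asns has such a site was thus not settled.

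Among the components of insulin signalling, 1 of 22 rose and 3 fell, which is not above the share in all genes. Grb14, an adaptor that inhibits the insulin receptor, was at 66.7, 67.5 and 63.1 CPM on chow and at 42.6, 37.3 and 37.9 CPM on HFD (-0.74 ± 0.12, adjusted p = 2.34e-05). Igfbp2, a binding protein that also circulates, fell by 1.53 ± 0.36. Socs3, an inhibitor of cytokine and insulin signals, was at 9.19, 105 and 35.5 CPM on chow and at 10.5, 11.7 and 7.30 CPM on HFD, which overlap. Its difference of -2.34 ± 0.61 (adjusted p = 0.00437) was lost without chow replicate 2 (adjusted p = 0.155) and when only the compared groups were fitted with a replicate block (adjusted p = 0.0686). Rgs16, which speeds the turnover of G protein signals, was at 16.8, 3.28 and 21.9 CPM on chow and at 109, 77.9 and 166 CPM on HFD (3.07 ± 0.61, adjusted p = 3.37e-04). Its relative Rgs4, named in the title of the series, was at 1.91, 1.66 and 2.17 CPM on chow and at 1.51, 1.94 and 1.81 CPM on HFD (-0.13 ± 0.42, adjusted p = 0.852). The Rgs4 groups overlapped at 120 min, while at 30 min its diet difference was 1.37 ± 0.36 (adjusted p = 0.00355).

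**Figure D2:**
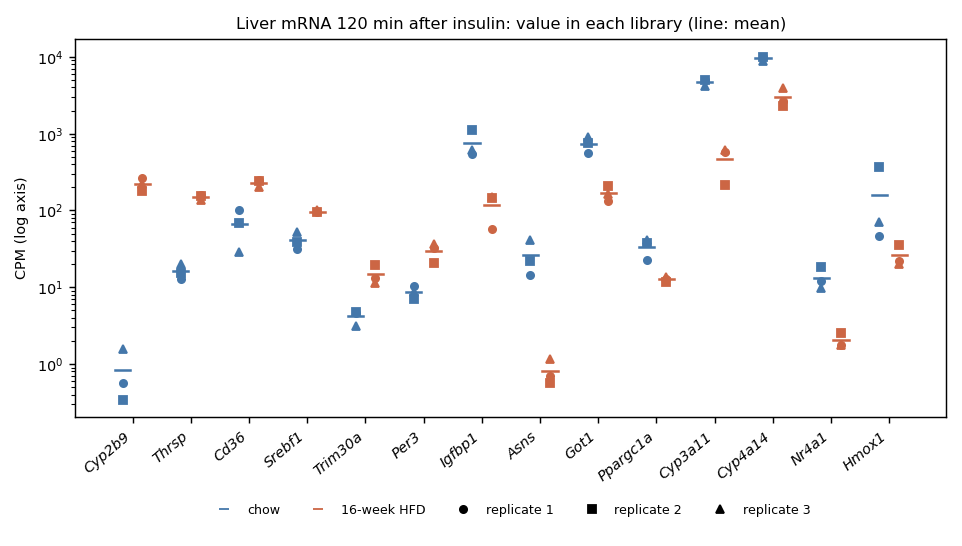
Level of 14 genes in each library 120 min after insulin, in CPM on a log axis, for chow (blue) and 16-week HFD (orange); symbols give the replicate and bars the mean. The values of the diets do not overlap for any gene shown, and chow replicate 2 is the highest library for Hmox1 at 364 CPM.

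A minority of the lipogenic and lipid storage genes rose on HFD. Of 26 genes that build fatty acids and triglycerides, 7 rose and 2 fell (median 0.22, but 0.10 without HFD replicate 3 and 0.07 with length and GC trends removed), and of 21 genes of lipid droplets and lipid uptake, 9 rose and none fell (median 0.44). Thrsp, a protein tied to lipogenesis, was at 12.9, 15.4 and 19.9 CPM on chow and at 161, 154 and 135 CPM on HFD (3.22 ± 0.54, adjusted p = 5.36e-05). Srebf1, the SREBP-1 gene, was at 31.5, 38.8 and 51.8 CPM on chow and at 94.8, 94.6 and 101 CPM on HFD (1.25 ± 0.29, adjusted p = 0.00153). Fatty acid synthase (Fasn) was at 80.1, 110 and 97.0 CPM on chow and at 127, 157 and 180 CPM on HFD (0.70 ± 0.26, adjusted p = 0.0443). That call of Fasn was lost in 7 of 13 alternatives, with adjusted p up to 0.156 when trends with length and GC content were removed. The enzymes of the last step of triglyceride synthesis moved apart: Dgat2 rose by 0.55 ± 0.13, and Dgat1 fell by 0.62 ± 0.09. Mogat1, which makes diacylglycerol, rose by 2.22 ± 0.48. Aacs, which activates acetoacetate for lipid synthesis, was at 9.59, 14.4 and 10.4 CPM on chow and at 101, 82.6 and 81.7 CPM on HFD (2.95 ± 0.30, adjusted p = 4.03e-08).

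Cd36, a fatty acid transporter, was at 103, 68.1 and 28.7 CPM on chow and at 248, 244 and 201 CPM on HFD (1.79 ± 0.31, adjusted p = 6.82e-05). Pparg, the nuclear receptor that raises storage genes in fatty liver, was at 9.73, 9.40 and 4.50 CPM on chow and at 14.5, 17.7 and 13.4 CPM on HFD (0.94 ± 0.24, adjusted p = 0.00413). Of the droplet proteins, Cidea was at 0.100, 0 and 0.271 CPM on chow and at 3.01, 4.61 and 1.42 CPM on HFD (adjusted p = 0.0115, and 0.0541 without chow replicate 2). Cidec was at 18.0, 19.4 and 13.1 CPM on chow and at 36.9, 66.8 and 28.3 CPM on HFD, which do not overlap, but it was not called (1.38 ± 0.55, adjusted p = 0.0558). It was called when only the compared groups were fitted (adjusted p = 0.0150). The receptor Vldlr rose by 1.69 ± 0.38 and Fitm2, which helps droplets form, by 0.70 ± 0.16. Adipocyte markers were measured to see whether fat tissue moved with these genes. Of 8 tested, 4 rose (Car3, Cfd, Cidea and Lipe) and none fell, a share of 50.0% against 14.5% higher among all genes. The summed level of the 10 markers was 549, 227 and 334 CPM on chow and 3335, 1676 and 3090 CPM on HFD. Most of it was Car3, at 531, 207 and 313 CPM on chow and at 3288, 1596 and 3055 CPM on HFD. The markers Adipoq, Plin1 and Lep were at or near 0, with highest values of 0.409, 0.358 and 0.563 CPM, all in HFD replicate 2. Whether fat tissue contributed to the rises was not tested.

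No cholesterol gene passed the test. None of 24 was called in edgeR or DESeq2, with a median of 0.34, while 5 were called higher and 1 lower when only the compared groups were fitted. Fdps, uncertain, which makes farnesyl diphosphate, was at 34.9, 48.7 and 28.4 CPM on chow and at 44.9, 110 and 109 CPM on HFD (1.24 ± 0.76, adjusted p = 0.230). The HFD livers were scattered: replicate 1 lay within the chow range and replicates 2 and 3 above it. Srebf2, the factor that drives these genes, was at 42.3, 49.0 and 45.9 CPM on chow and at 56.1, 76.4 and 80.9 CPM on HFD (0.64 ± 0.28, adjusted p = 0.0813).

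Genes of fatty acid oxidation split. Of 32 tested, 9 fell and 5 rose, and the median was -0.05. The omega-hydroxylase Cyp4a14, a target of PPARα, was at 10102, 9970 and 8725 CPM on chow and at 2652, 2295 and 3942 CPM on HFD (-1.70 ± 0.25, adjusted p = 1.15e-05). The peroxisomal enzyme Ehhadh was at 2345, 3522 and 2146 CPM on chow and at 672, 542 and 821 CPM on HFD (-1.98 ± 0.36, adjusted p = 1.31e-04). Bdh1, which interconverts ketone bodies, rose by 0.70 ± 0.14, and the mitochondrial carrier Ucp2 rose by 1.27 ± 0.25. In glycolysis and glucose uptake, 8 of 25 genes rose and 4 fell, and 5 rose without HFD replicate 2. Pfkl, the liver phosphofructokinase, was at 27.6, 27.8 and 30.7 CPM on chow and at 42.9, 47.0 and 44.4 CPM on HFD (0.64 ± 0.12). Ppp1r3g, which targets a phosphatase to glycogen, was at 19.9, 24.1 and 5.37 CPM on chow and at 1.10, 1.38 and 1.57 CPM on HFD (-3.61 ± 0.72, adjusted p = 3.77e-04).

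Nearly all interferon-stimulated genes were higher on HFD. Of 33 tested, 30 rose (90.9%, against 14.5% of all genes) and none fell, with a median of 1.56. The 3 that were not called are Mx1, Mx2 and Bst2. Trim30a, which restrains inflammatory signalling, was at 4.68, 4.75 and 3.15 CPM on chow and at 13.4, 19.4 and 11.5 CPM on HFD (1.81 ± 0.21, adjusted p = 3.17e-07). Ifit2, which binds foreign RNA, was at 2.44, 1.96 and 1.52 CPM on chow and at 8.02, 10.6 and 5.48 CPM on HFD (2.00 ± 0.28). HFD replicate 2 was the highest library in both of these genes. Without it, 25 of 33 rose and the median was 1.19, so that the rise was also present in HFD replicates 1 and 3. Ifi44 rose by 2.07 ± 0.29 and Gbp6, a guanylate-binding protein, by 2.49 ± 0.34. Gbp6 and Ifit3 are uncertain, with 72.3% and 56.1% of their exon words shared.

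Promoters of this list were searched for GAAANNGAAA, the core of the interferon-stimulated response element that IRF factors bind. The 5 called members with the smallest adjusted p that hold the word are printed to show where it lies, with the word in capitals (it reads as its reverse complement where it is on the other strand). Sequences are from RefSeq on GRCm38.p6, written 5′ to 3′ along the gene. The windows are chr7:104465194-104465259 (minus strand, Trim30a), chr4:156200845-156200926 (minus, Isg15), chr3:142559969-142560043 (plus, Gbp3), chr5:120777695-120777764 (minus, Oas3) and chr19:34583343-34583446 (plus, Ifit3).
Trim30a: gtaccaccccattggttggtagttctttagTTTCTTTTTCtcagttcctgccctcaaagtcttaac
Isg15: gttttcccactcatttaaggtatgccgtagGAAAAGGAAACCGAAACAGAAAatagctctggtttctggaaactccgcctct
Gbp3: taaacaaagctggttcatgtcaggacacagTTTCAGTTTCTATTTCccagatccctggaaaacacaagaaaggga
Oas3: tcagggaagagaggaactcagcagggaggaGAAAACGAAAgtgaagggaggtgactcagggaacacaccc
Ifit3: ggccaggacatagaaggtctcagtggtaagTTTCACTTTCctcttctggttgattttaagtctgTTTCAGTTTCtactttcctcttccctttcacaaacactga
Matches overlap in Isg15, which has 3, and in Gbp3, which has 2. The levels of the 4 genes not yet described were also higher on HFD: Isg15, a ubiquitin-like protein, by 2.01 ± 0.30, Gbp3 by 2.25 ± 0.34, Oas3, which makes the 2-5A messenger, by 2.30 ± 0.36, and Ifit3 by 1.67 ± 0.27. These genes were chosen after their values were seen. The word was in 13 of the 25 list genes with a promoter (52.0%) and in 3.5% of all 27025 genes with one. Counted by promoter, it was in 3.0% of all 32851. Of 370 tested genes with the word, 23.5% were called higher on HFD, against 13.9% of 10768 without it.

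The summed levels of markers of macrophages and of other immune cells were higher on HFD, and most by far in HFD replicate 2. The summed level of 29 macrophage markers was 489, 466 and 487 CPM on chow and 761, 1739 and 691 CPM on HFD. Of these 29, 16 rose (55.2%, against 14.5% of all genes) and none fell, with a median of 1.24. Without HFD replicate 2 the count was 5, with a median of 0.69, and without chow replicate 2 or chow replicate 3 it was 10. Fcgr1, a high-affinity receptor of antibodies, was at 1.47, 1.13 and 1.52 CPM on chow and at 4.23, 10.4 and 3.77 CPM on HFD (2.15 ± 0.41, adjusted p = 2.50e-04). Mpeg1, a pore protein of phagocytes, was at 48.3, 39.2 and 46.6 CPM on chow and at 99.9, 269 and 80.7 CPM on HFD (1.75 ± 0.38). Ccr2, the receptor that brings monocytes into tissue, rose by 2.16 ± 0.52. The scavenger receptor Marco was at 7.39, 13.7 and 7.16 CPM on chow and at 9.12, 141 and 15.6 CPM on HFD, which overlap (adjusted p = 0.0676). The sum of 25 lymphocyte and neutrophil markers was 117 to 129 CPM on chow and 187, 475 and 162 CPM on HFD. Of 24 tested, 6 rose (25.0%), while 1 did without HFD replicate 2 or chow replicate 2, and 2 without chow replicate 1 or chow replicate 3. Without HFD replicate 2, 1249 of all 14067 genes were called higher, so that 1 of 24 is not above the share of all genes. The call of Ptprc, the pan-leukocyte CD45, was lost without HFD replicate 2 (adjusted p = 0.123) or chow replicate 3 (adjusted p = 0.0563). How far immune cells account for the interferon genes was not tested.

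Cell cycle genes moved with the same library. Of 25 tested, 12 rose and 1 fell, while 3 rose without HFD replicate 2 and 4 when only the compared groups were fitted. Top2a, the topoisomerase of dividing cells, was at 0.903, 0.588 and 0.271 CPM on chow and at 1.55, 7.78 and 1.37 CPM on HFD (2.52 ± 0.52, adjusted p = 4.97e-04, and 0.0555 without HFD replicate 2). Ccnd1, cyclin D1, was not of this kind: it was at 14.7, 12.3 and 18.2 CPM on chow and at 65.4, 58.6 and 67.0 CPM on HFD (2.08 ± 0.38, adjusted p = 1.34e-04), although it is uncertain, with 22% of its exon words shared. In the acute phase list 6 of 29 rose and 2 fell, but 2 rose and 4 fell without either HFD replicate 2 or chow replicate 1. Saa4, a constitutive serum amyloid, was at 326, 450 and 428 CPM on chow and at 1058, 1501 and 823 CPM on HFD (1.49 ± 0.29). The inducible Saa2, uncertain, was at 6.18, 53.5 and 7.38 CPM on chow and at 42.5, 891 and 21.7 CPM on HFD, and its call was lost without HFD replicate 2 (adjusted p = 0.752), chow replicate 1 (0.0517) or chow replicate 3 (0.0581), and when only the compared groups were fitted (0.0917).

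**Figure D3:**
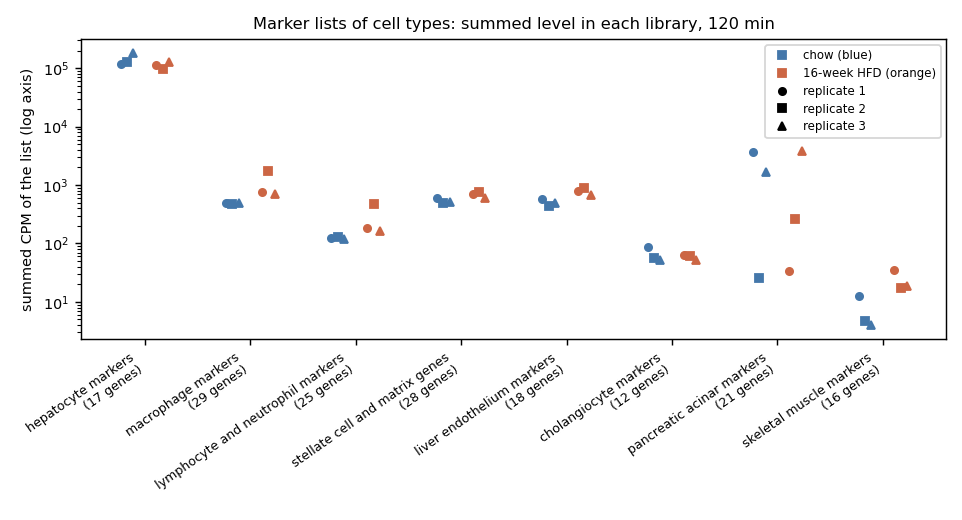
Summed CPM of 8 marker lists (x axis) in each of the 6 libraries on a log axis; colour gives the diet and symbol the replicate. HFD replicate 2 is highest for macrophage markers (1739 CPM) and for lymphocyte and neutrophil markers (475 CPM), and pancreatic acinar markers vary in both diets.

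Part of the stromal genes were called higher on HFD. Of 28 genes of stellate cells and matrix, 13 rose (46.4%, against 14.5% of all genes) and none fell (median 0.61). However, 4 rose without HFD replicate 2, 4 without chow replicate 2, 5 without chow replicate 3 and 7 without either chow replicate 1 or HFD replicate 1. Their summed level overlapped between diets, at 601, 502 and 513 CPM on chow and at 706, 764 and 592 CPM on HFD. Acta2 had the lowest difference of the list (-1.26) and was not called. Col1a1, the chain of type I collagen, was at 3.04, 1.62 and 1.63 CPM on chow and at 10.3, 14.8 and 7.20 CPM on HFD (2.32 ± 0.65, adjusted p = 0.00722). Col3a1 rose by 1.64 ± 0.47 and Col6a3 by 1.23 ± 0.31. Liver endothelium had 11 of 18 markers higher (median 0.65), and 7 without HFD replicate 2 or without chow replicate 2. Eng, endoglin, was at 48.3, 45 and 51.6 CPM on chow and at 87.1, 96.1 and 75.5 CPM on HFD (0.84 ± 0.15). Bile duct markers were not higher: of 10 tested, none rose and 2 fell (median -0.33), with no fall called without chow replicate 1 and 1 without any single HFD library.

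Genes of protein synthesis and turnover were lower by small amounts. Of 30 ribosomal protein genes 28 fell (median -0.46), of 25 genes of ribosome biogenesis 12 fell (median -0.26), of 26 proteasome genes 18 fell (median -0.38) and of 30 genes of oxidative phosphorylation 16 fell (median -0.31), and none of these lists had a member that rose. Rpl4, uncertain, a protein of the large subunit, was at 542, 537 and 581 CPM on chow and at 372, 373 and 387 CPM on HFD (-0.55 ± 0.10). Nop58, a core protein of box C/D particles in the nucleolus, was at 26.6, 25.5 and 26.4 CPM on chow and at 12.8, 15.1 and 15.1 CPM on HFD (-0.87 ± 0.11, adjusted p = 2.18e-06). Gnl3, nucleostemin, fell by 0.93 ± 0.10. Sdhd, a subunit of succinate dehydrogenase, was at 218, 196 and 234 CPM on chow and at 154, 129 and 146 CPM on HFD (-0.60 ± 0.10). Many of these genes are short, and the length trend above runs the same way. With the trends of each library with exon length and GC content removed, 27, 15, 18 and 16 of them fell, and the medians were -0.40, -0.31, -0.27 and -0.21. Leaving out a library lowered the count for ribosomal proteins to 18 (without chow replicate 3), for ribosome biogenesis to 8 (without HFD replicate 1), for the proteasome to 10 (without HFD replicate 1) or 11 (without chow replicate 2) and for oxidative phosphorylation to 4 (without HFD replicate 2), 8 (without chow replicate 1) or 10 (without chow replicate 3).

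Chaperones of the endoplasmic reticulum were partly higher. Of 29 genes of the unfolded protein response 7 rose (24.1%, against 14.5% of all genes), with a median of 0.41. The 3 that fell are 10.3%, which is not above the 13.6% of all genes. The count that rose was 14 when only the compared groups were fitted and 4 without either chow replicate 3 or HFD replicate 3. Without HFD replicate 3, 1864 of all 14067 genes were called higher, a share near that of 4 in 29. Pdia4, a disulfide isomerase, was at 175, 195 and 154 CPM on chow and at 297, 358 and 453 CPM on HFD (1.08 ± 0.28, adjusted p = 0.00434). Derl3, of the pathway that removes misfolded proteins, was at 1.91, 5.14 and 0.923 CPM on chow and at 19.7, 14.3 and 21.0 CPM on HFD (2.79 ± 0.71). The chaperone Hspa5 was at 971, 1015 and 933 CPM on chow and at 1061, 1405 and 1814 CPM on HFD and was not called (0.55 ± 0.29, adjusted p = 0.155). The 3 that fell, Asns, Atf4 and Ppp1r15a, belong to the amino acid and stress response through ATF4.

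Of 30 genes of xenobiotic metabolism 2 rose (6.67%) and 5 fell (16.7%), with a median of -0.07, so that the list did not stand out from all genes. The count that fell was 3 without chow replicate 1, chow replicate 2, HFD replicate 1 or HFD replicate 2. Single members differed by large factors. Cyp2b9, a cytochrome P450 known as female-biased in mouse liver, lies in mm9 at chr7:26958428-26995679 on the plus strand. It was at 0.568, 0.343 and 1.57 CPM on chow and at 263, 182 and 220 CPM on HFD (8.12 ± 0.84, adjusted p = 4.03e-08). Its diet difference was 8.36 ± 0.83 in basal livers, and the level was high on HFD at every time. Cyp3a11, the main CYP3A enzyme of mouse liver, was at 5011, 4983 and 4244 CPM on chow and at 578, 218 and 620 CPM on HFD (-3.33 ± 0.48, adjusted p = 8.32e-06). Slco1a4, a carrier of bile acids and drugs, was at 215, 170 and 273 CPM on chow and at 56.8, 21.1 and 42.7 CPM on HFD (-2.45 ± 0.44). Of 22 bile acid genes 5 fell and 1 rose, among them Klb, the co-receptor of FGF15 and FGF21, which fell by 1.20 ± 0.16, and Baat, which conjugates bile acids, which fell by 0.79 ± 0.13. Of 19 male-biased genes 8 fell and 1 rose (median -0.74), and Ugt2b1 was at 510, 531 and 442 CPM on chow and at 243, 137 and 218 CPM on HFD (-1.31 ± 0.21). Without chow replicate 2 or HFD replicate 1, 4 male-biased genes fell, and without HFD replicate 2 or HFD replicate 3, 5 did. Of 18 female-biased genes 4 rose and 4 fell, so that the list did not move one way.

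Some stress and early response genes were lower on HFD, though most members of their lists were not called or rose. Hmox1, heme oxygenase, was at 46.5, 364 and 71.8 CPM on chow and at 21.9, 35.9 and 20 CPM on HFD (-2.63 ± 0.52, adjusted p = 3.37e-04), with chow replicate 2 far above the rest. The diets did not overlap. Without that library the Hmox1 difference was -1.19, with an adjusted p of 0.0468. Nr4a1, an orphan nuclear receptor that responds to cAMP, was at 12, 18.1 and 9.88 CPM on chow and at 1.79, 2.56 and 1.76 CPM on HFD (-2.71 ± 0.66, adjusted p = 0.00242). In the list of 30 immediate early genes 8 fell, 1 rose and 21 were not called (median -0.19, and 0.04 without chow replicate 2). The count that fell was 4 without chow replicate 2 or HFD replicate 1, 5 without chow replicate 3 and 3 without HFD replicate 2. Btg2, an antiproliferative gene, was at 32.0, 63.5 and 54.2 CPM on chow and at 14.0, 18.8 and 17.3 CPM on HFD (-1.58 ± 0.42). Egr1 went the other way, at 66.2, 50.2 and 32.2 CPM on chow and 149, 89.0 and 203 CPM on HFD, and was not called (1.57 ± 0.71, adjusted p = 0.0931). The growth arrest genes Gadd45b and Gadd45g fell by 2.64 ± 0.45 and 2.48 ± 0.72, the latter not called without HFD replicate 1 (adjusted p = 0.0568). In the list of Nrf2 targets 7 of 20 fell, 3 rose and 10 were not called, and 4 fell without either chow replicate 2 or HFD replicate 2. Gsr, glutathione reductase, was at 94.0, 102 and 87.8 CPM on chow and at 61.1, 61.5 and 65.9 CPM on HFD (-0.59 ± 0.10).

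Clock genes differed in both directions, with 6 of 20 higher and 5 lower; without chow replicate 2, 3 were higher and 3 lower. Per3, a repressor of the clock, was at 10.5, 7.10 and 8.74 CPM on chow and at 32.9, 20.6 and 36.5 CPM on HFD (1.76 ± 0.38), and Per2 rose by 1.46 ± 0.29. Npas2, an activator partner, was at 0.869, 0.783 and 0.814 CPM on chow and at 0.163, 0.256 and 0.0979 CPM on HFD (-2.24 ± 0.53). The output gene Hlf rose by 0.77 ± 0.18, and Nfil3, which opposes it, fell by 1.23 ± 0.31 (adjusted p = 0.00320, and 0.0568 without chow replicate 2). The labels used here give no clock time of death.

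Other genes with very large rises, outside the lists, were Serpina4-ps1, annotated as a pseudogene, at 6.62, 5.97 and 3.58 CPM on chow and 86.8, 193 and 83.4 CPM on HFD (4.47 ± 0.88), and Themis, known from T cell development, at 0.769, 0.979 and 0.271 CPM on chow and 11.4, 13.8 and 5.58 CPM on HFD (3.88 ± 0.67). Sema5b, a semaphorin, rose by 3.26 ± 0.44, and Spry4, an inhibitor of receptor tyrosine kinase signals, rose by 2.94 ± 0.41. Cfd, the complement factor adipsin, belongs to the list of adipocyte markers. It was at 0.769, 0.686 and 1.25 CPM on chow and at 16.4, 41.9 and 9.79 CPM on HFD (4.67 ± 1.11, adjusted p = 0.00210). Srgap3, a GTPase activator, fell by 2.84 ± 0.28.

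A large part of the diet difference at 120 min was also seen at other times. In basal livers 32.3% of genes were called by diet and at 60 min 22.4%. Genes called at both 120 min and basal numbered 2258, which is 57.0% of the calls at 120 min and 49.7% of those in basal livers, and 2230 of them had the same sign. With 60 min the shared calls were 2134, 53.9% of those at 120 min and 67.6% of those at 60 min, of which 2133 had the same sign. These comparisons share no library with that at 120 min. No gene was called for a difference of the diet effect between 60 and 120 min (0%) in edgeR, where the smallest adjusted p was 0.419 and 673 genes had an unadjusted p under 0.05, and 1 gene was called by DESeq2. In edgeR 1 was called without HFD 60 min replicate 2.

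The diet effect at 120 min differed from that in basal livers for 118 genes (0.839%), 60 with a more positive and 58 with a more negative effect at 120 min. In 80 of the 118 the effect was smaller in size at 120 min, and in 101 of them the change from basal to 120 min was larger on chow than on HFD. A number of these genes had opposite effects at both times: 23 were called at both with opposite signs, 9 at both with the same sign, 61 in basal livers alone and 25 at 120 min alone. With length and GC trends removed, 36 were more positive and 62 more negative. The count of 118 rests on single libraries. It was 8, 67 and 95 without chow basal replicate 2, 3 and 1, 51, 23 and 266 without chow 120 min replicate 2, 3 and 1, 55, 80 and 45 without HFD 120 min replicate 1, 2 and 3, and 61, 63 and 134 without HFD basal replicate 1, 2 and 3.

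**Figure D4:**
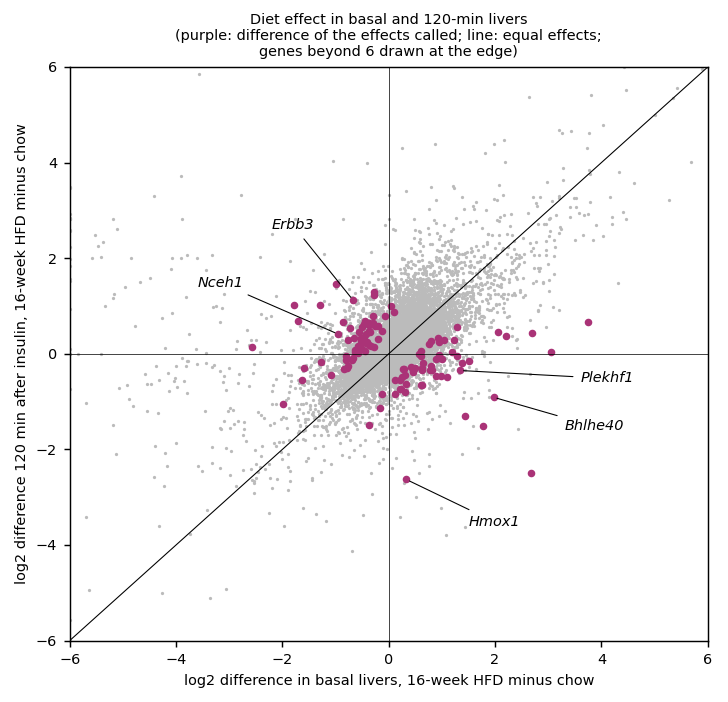
Log2 difference by diet in basal livers (x axis) and 120 min after insulin (y axis) for all 14067 genes tested; the 118 genes whose diet effects differed are purple, and the diagonal marks equal effects. Bhlhe40 lies far right of the diagonal and Erbb3 above it.

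Bhlhe40 had the smallest adjusted p for such a difference. It encodes a repressor of the clock that also responds to insulin and feeding. On chow it averaged 27.2 ± 0.490 CPM in basal livers and 141 ± 70.2 CPM at 120 min, and on HFD 107 ± 9.49 and 75.1 ± 8.79 CPM (SD, n = 3 each). The diet effect thus went from 1.97 ± 0.25 to -0.91 ± 0.24, a difference of -2.88 ± 0.34 (adjusted p = 8.52e-06). At 120 min the libraries stood at 87.8, 221 and 115 CPM on chow and at 80.0, 64.9 and 80.3 CPM on HFD. The diet effect at 120 min itself was not called without chow replicate 2 (adjusted p = 0.169), nor when only the compared groups were fitted (adjusted p = 0.0593, and 0.0893 with a replicate block).

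Rin2, a regulator of RAB5, averaged 19.7 ± 2.59 CPM on chow in basal livers and 12.1 ± 1.34 CPM at 120 min, and on HFD 13.4 ± 1.39 and 16.5 ± 1.58 CPM (SD, n = 3 each). The diet effect went from -0.56 ± 0.13 to 0.45 ± 0.13, a difference of 1.00 ± 0.18 (adjusted p = 0.00820). At 120 min the Rin2 libraries stood at 12.5, 13.2 and 10.6 CPM on chow and at 17, 17.7 and 14.7 CPM on HFD, which do not overlap. The diet effect at 120 min was not called without chow replicate 3 (adjusted p = 0.0710) or HFD replicate 2 (adjusted p = 0.0569).

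**Figure D5:**
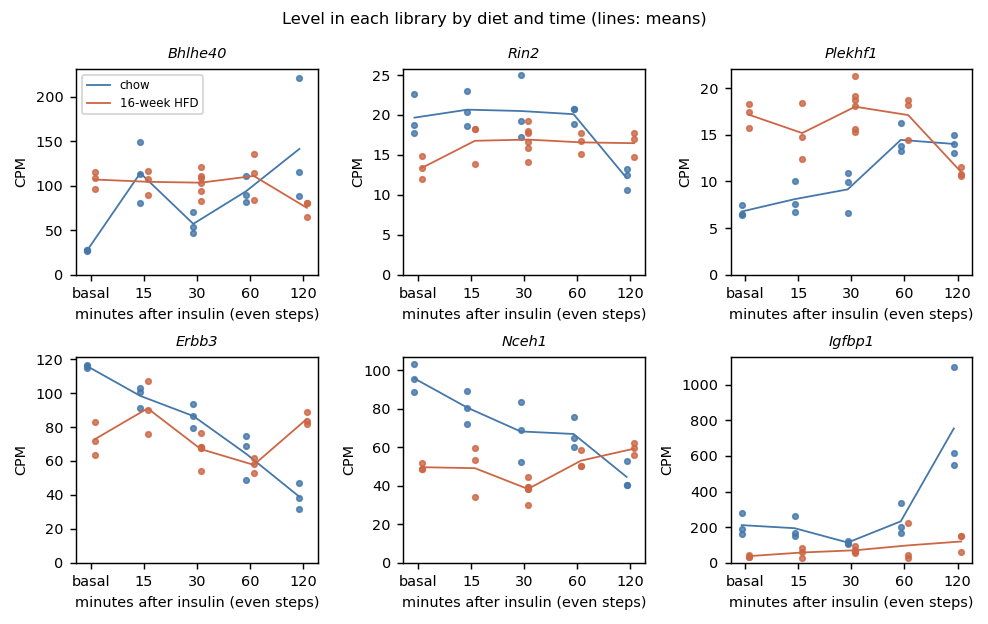
CPM of 6 genes in each library of chow (blue) and 16-week HFD (orange) in basal livers and 15, 30, 60 and 120 min after insulin, drawn at even steps, with lines through the means. The means of the diets cross or meet by 120 min in Bhlhe40, Rin2, Plekhf1, Erbb3 and Nceh1, whereas Igfbp1 stays lower on HFD. The diet difference at 120 min was not called for Plekhf1 and Nceh1.

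Erbb3, a receptor of the EGF family that insulin is known to lower in liver, averaged 116 ± 0.994 CPM on chow in basal livers and 38.9 ± 7.58 CPM at 120 min, and on HFD it averaged 72.8 ± 9.79 and 84.8 ± 3.76 CPM (SD, n = 3 each). Its diet effect went from -0.67 ± 0.23 to 1.12 ± 0.23 (difference 1.79 ± 0.33, adjusted p = 0.00820). Nceh1, a hydrolase of cholesteryl esters and ether lipids, averaged 95.6 ± 7.14 and then 44.5 ± 7.21 CPM on chow and 49.5 ± 1.78 and 59.2 ± 3.15 CPM on HFD (SD, n = 3 each), a difference of 1.36 ± 0.23 between the diet effects (adjusted p = 0.00355). Plekhf1, a lysosomal adaptor, averaged 6.77 ± 0.577 and then 14.0 ± 0.980 CPM on chow and 17.2 ± 1.33 and 11.0 ± 0.523 CPM on HFD (SD, n = 3 each), a difference of -1.69 ± 0.25 (adjusted p = 4.16e-04). In Erbb3, Nceh1 and Plekhf1 the chow mean at 120 min lay nearer to the basal HFD mean, or past it. Their HFD means lay closer together than their chow means on the CPM scale. For Nceh1 and Plekhf1 the diet effect at 120 min itself was not called. Over the alternatives its adjusted p was 0.0290 to 0.180 for Nceh1 and 0.0251 to 0.281 for Plekhf1. Of the genes in the metabolic lists, Slc2a1, the glucose transporter GLUT1, had a difference of -1.35 ± 0.27, which was not called without chow basal replicate 2 (adjusted p = 0.0626). Dgat2 had one of -0.73 ± 0.18, whose call held without chow 120 min replicate 1 or 2 or chow basal replicate 1 and was lost without any other single library (highest adjusted p = 0.135, without chow 120 min replicate 3). By contrast, the diet effect of G6pc was nearly the same at both times (-1.32 ± 0.37 in basal livers), and that of Srebf1 was 2.17 ± 0.30 in basal livers and 1.25 ± 0.29 at 120 min, a difference that was not called (-0.92 ± 0.40, adjusted p = 0.280).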

How the data were processed

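The deposited tables hold raw counts of reads per gene, which the authors made from polyA RNA libraries of a kit that does not mark strand. Reads were aligned with TopHat 1.4.0 to mm9 and counted with HTSeq, per the submitters' processing notes. Normalised tables were not used here. All 45 libraries (14 groups) were fitted together with edgeR 4.0.16 in R 4.3.3 (quasi-likelihood F test, TMM scaling, filterByExpr with a minimum count of 10, Benjamini-Hochberg adjustment at 0.05). They include livers of mice given metformin at 270 mg/kg per day and livers after 6 weeks of HFD from 18 weeks of age. Standard errors were taken from the log2 difference and its F statistic. The 45 libraries held 18193181 to 50253493 counts, and replicates may differ by animal or only technically, which the labels used here do not settle. On data simulated with known fold changes and the spread of the fit itself, every changed gene that was called had the right sign. This checks only the direction of the contrast.

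Genes were assigned to 36 lists of 816 genes. Named genes were the 12 largest rises and 12 largest falls among called genes that averaged at least 5 CPM and had no overlap, up to 5 called members with the smallest adjusted p per list, 14 fixed metabolic genes, and the 8 smallest adjusted p per difference of diet effects. Isg15, Gbp3, Oas3, Ifit3, Mx1, Mx2, Bst2, Slc2a1, Fdps, Srebf2, Marco, Hspa5, Gdf15, Usp2, Smoc1, Plk3 and Gm129 were chosen after their values were seen. Some genes that the rule names are not reported here. The members and lists were chosen with earlier results of these data known. Exon words of 40 bases were compared between genes, and 20% or more shared marks a gene as uncertain. Srebf1, Irs2, Bhlhe40, Gnl3, Eng, Fitm2, Lipe and Plk3 overlap exons of a gene on the other strand, whose reads cannot be told apart. Promoters came from RefSeq (GRCm38.p6), matched by symbol for 630 of the 816 genes. Alternatives were DESeq2 1.42.0, its scaling (RLE), no filter, a replicate block, fits of only the groups compared, removal of length and GC trends, and leaving out each library.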

Additional observations from a re-analysis of the deposited data

Results flagged for a closer look

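The diet effect 120 min after insulin differed from that in basal livers in edgeR's test of the difference for 16 of the genes described. For each, the value is the effect at 120 min minus the effect in basal livers, on the log2 scale. The difference was -2.88 for Bhlhe40, -1.69 for Plekhf1, 1.36 for Nceh1, 1.79 for Erbb3 and 1.00 for Rin2, whose levels are given above. It was -0.73 for 0610040J01Rik, an uncharacterised gene, and 1.08 for Cbfb, the partner of RUNX factors. Among the metabolic genes it was -1.35 for Slc2a1 and -0.73 for Dgat2.

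Other listed genes were called too. The difference was -3.31 for Gdf15, a stress-induced secreted factor, -2.75 for Plk3, a stress kinase, and -2.96 for Hmox1. The Hmox1 value was -1.52 without chow 120 min replicate 2 and was then not called (adjusted p = 0.254). It was -2.26 for Usp2, a deubiquitinase with a daily rhythm, and -3.02 for Gm129, a gene of the clock list. It was -1.56 for Mx2, an interferon-stimulated gene, and -0.68 for Smoc1, a secreted matrix protein. Many of these calls rest on single libraries. Without chow basal replicate 2, 10 of them were lost, those of Cbfb, Slc2a1, Dgat2, Gdf15, Plk3, Hmox1, Usp2, Gm129, Mx2 and Smoc1. For the other fits the number lost was counted over 17 genes, those above and a further gene not described here. It was 3 and 5 without chow basal replicates 1 and 3, and 0, 5 and 7 without chow 120 min replicates 1, 2 and 3. It was 5, 6 and 3 without HFD basal replicates 1, 2 and 3, and 7, 5 and 7 without HFD 120 min replicates 1, 2 and 3. With length and GC trends removed, 6 of the 17 were lost. The calls of Bhlhe40, Plekhf1, Nceh1, Erbb3, Rin2 and 0610040J01Rik held in each of these fits.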

How the results depend on the processing

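The 3962 diet calls at 120 min ranged from 2523 to 3523 when a library was left out and from 3633 to 4574 under the other alternatives. No named gene turned its direction under any of the 13 alternatives. The 118 differences from basal livers were 188 when only the compared groups were fitted, 315 in DESeq2 and 8 to 266 when a library was left out. The cause was not tested. For the difference from 60 min, DESeq2 called 1 gene, and leaving out a library gave 0 to 1. Deviations of same-numbered chow and HFD libraries from their group means were correlated across genes at -0.214, 0.0823 and 0.186. These values cannot tell whether the numbers pair the samples, since paired samples need not deviate together. With a replicate block the counts were 4160, 156 and 0. With 3 libraries a group, at 18259993 to 29466850 counts, small differences in genes of low count were not detectable.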
